A study of Mus musculus with 8 samples.

Results

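The nuclear genes of the mitochondrial ribosome were examined in whole kidneys of mice that lack Col4a3, alone or together with osteopontin. A gene was taken when its symbol was Mrpl or Mrps followed by digits and at most 1 letter, and its probe set with the highest mean over the arrays was used. This gave 71 of 22180 genes, 43 named Mrpl and 28 named Mrps. Of these, 52 had a mean above the intensity filter (a log2 value of 6.64, the 75th percentile of all probe sets), 31 named Mrpl and 21 named Mrps, and only these 52 were tested. The other 19 were too dim and are described separately. A further 7 symbols were found only on probe sets shared with another gene and were not counted as members.

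The mitochondrial ribosome translates the few messages of the mitochondrial DNA, all of which encode subunits of the respiratory chain and of ATP synthase. Its rRNAs come from the mitochondrial DNA, but every protein of it is encoded in the nucleus, made in the cytosol and imported. Some of these proteins have a counterpart in the bacterial ribosome and others are found only in mitochondria. The kidney, and the proximal tubule above all, is rich in mitochondria, which pay for the reabsorption of filtered solutes.

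Kidneys came from 3 mice without Col4a3 and osteopontin (Col4a3-/-OPN-/-, called double mutants), 3 mice without Col4a3 (Col4a3-/-, called single mutants) and 2 wild-type mice. All were 2 months old, and each mouse gave 1 array. Both mutants share the loss of Col4a3, a collagen IV chain of the filter's basement membrane, which serves as a model of Alport syndrome. Double and single mutants were each compared with the same 2 wild-type arrays, so those comparisons are not independent of each other. In whole tissue, fewer cells of a type and less RNA per cell cannot be told apart.

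The labels do not give strain or sex. By Xist, expressed from the inactive X chromosome, and the Y-linked Eif2s3y, double mutants 1 and 2 and single mutants 1 and 3 were female. Double mutant 3, single mutant 2 and both wild-type mice were male. Each comparison is therefore given both from the groups alone and with sex added to the model. The sex difference is then estimated from the mutants, with 1 male in each mutant group, and taken to be equal in all groups. It cannot be told apart from other differences between those males and the females. The targeted gene Col4a3 measured 6.82, 6.13 and 7.60 in double mutants and 7.65, 7.67 and 6.60 in single mutants, against 8.77 and 8.42 in wild type. It was lower on all 6 mutant arrays, by 1.75 in double and 1.29 in single mutants (limma, adjusted p = 0.0998 and 0.162), and whether its probes lie in the deleted part was not checked. The median over all probe sets was 5.18 to 5.25 on the 8 arrays. All values below are log2 values, and no level is compared between genes.

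Most mitoribosomal genes read lower in both mutants than in wild type, in the large and the small subunit alike. The median difference of the 52 genes was -0.42 in double mutants and -0.38 in single mutants, against -0.08 and -0.07 over all 7145 genes tested. In the double mutants 50 of 52 genes, and in the single mutants 51 of 52, lay below wild type. Of all genes tested, 59.2% and 57.2% did. Averaged over the 52 genes, the difference from the wild-type mean was -0.45, -0.28 and -0.48 in double mutants 1 to 3 and -0.36, -0.64 and -0.25 in single mutants 1 to 3. The wild-type arrays lay at -0.06 and 0.06, so all 6 mutant arrays were below both of them. The lowest array was the male single mutant 2.

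**Figure D1:**
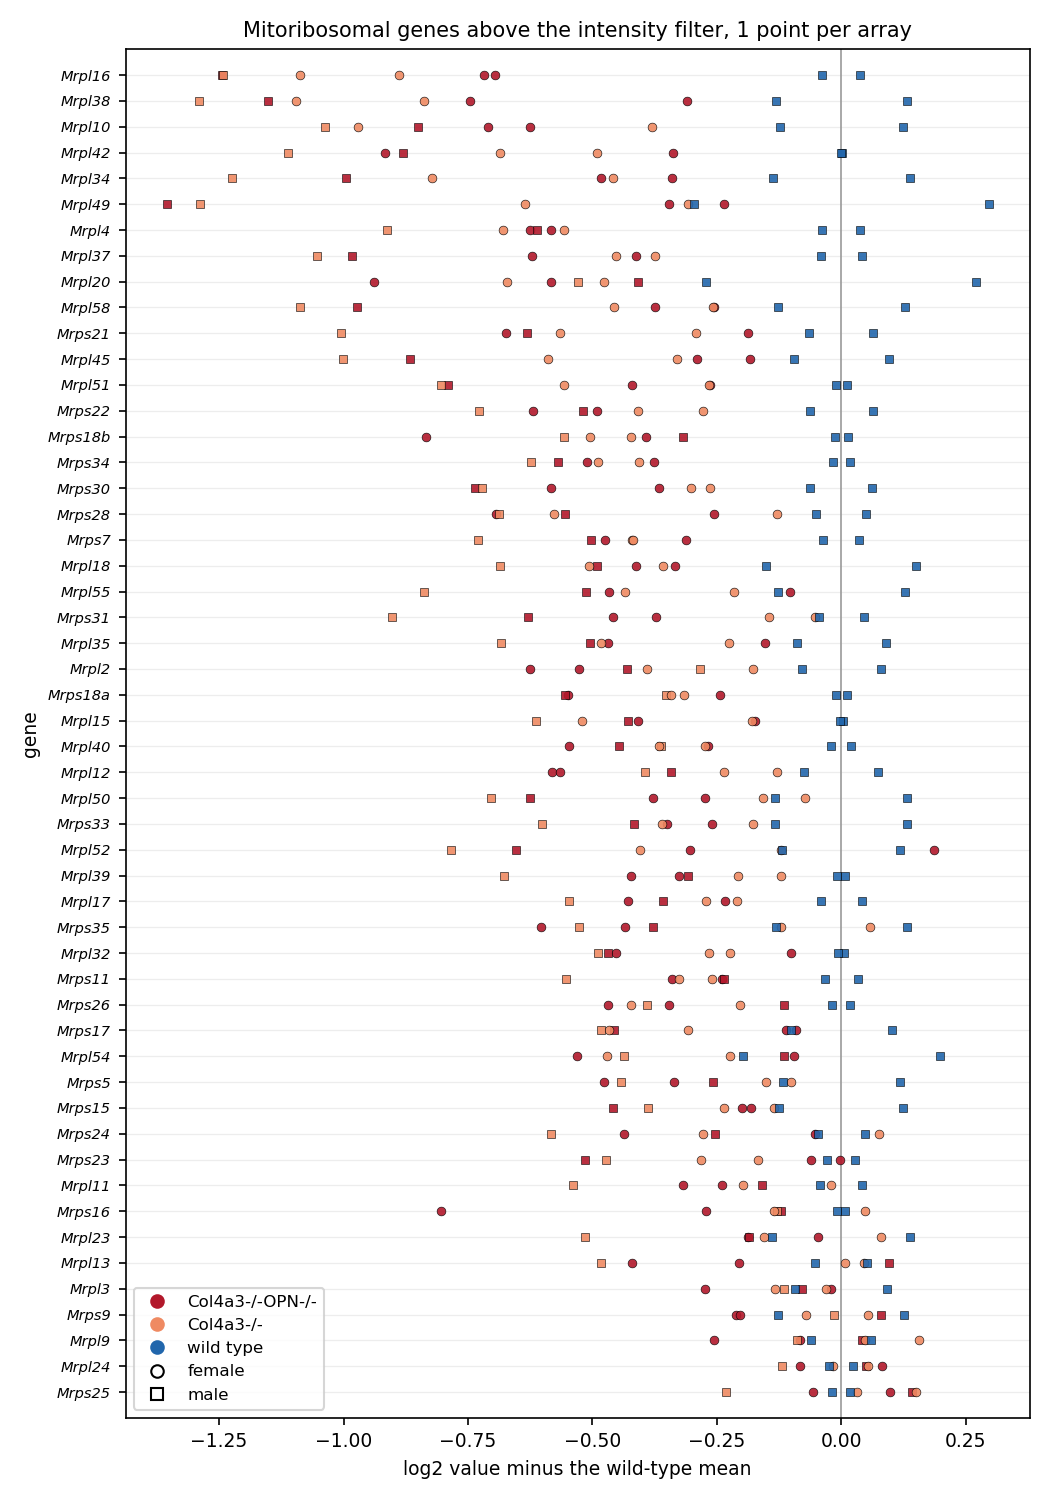
Each row is 1 of the 52 mitoribosomal genes tested and each point is 1 array, placed by its log2 value minus the wild-type mean of that gene, with colour for genotype, circles for females and squares for males. Mutant points lie left of both wild-type points for 33 of 52 genes, and in the rows at the bottom, Mrps25 and Mrpl24 among them, they lie on both sides of wild type.

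Counted gene by gene, every double-mutant array was below both wild-type arrays for 39 of 52 mitoribosomal genes, against 28.8% of all genes tested. Every single-mutant array was below both wild-type arrays for 39 of 52 as well, against 29.1% of all genes tested. All 6 mutant arrays were below both wild-type arrays for 33 of 52 (63.5%), against 21.4% of all genes tested. By array, 49, 45 and 45 of the 52 genes lay below both wild-type arrays in double mutants 1 to 3, and 42, 51 and 43 in single mutants 1 to 3. Over all genes tested these shares were 44.0%, 41.7% and 57.5% in double mutants and 47.1%, 52.7% and 41.3% in single mutants.

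No single gene passed the test in the fit of the groups alone (limma, adjusted by Benjamini-Hochberg over 7145 genes, called under 0.05). Of 52 genes, 0 were called in double mutants against wild type, where 0.084% of all genes were called, and 0 in single mutants against wild type, where 0.028% were. At an unadjusted p under 0.05 these counts were 21 and 25 of 52, against 1544 and 1656 of all 7145. In the fit with a term for sex, 20 of 52 genes (38.5%) were called lower in double mutants, against 17.8% of all genes, and 26 of 52 in single mutants, against 19.9% of all genes. None was called higher in either. The median difference in that fit was -0.51 in double mutants and -0.54 in single mutants, against -0.15 in both over all genes.

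These calls depended on single arrays. In the fit with a term for sex, the 20 genes called in double mutants became 0 without wild type 2, 10 without wild type 1 and 12 without single mutant 2. The 26 called in single mutants became 1 without wild type 2, 14 without wild type 1 and 0 without single mutant 2, the group's only male. Among males alone, the median of the 52 genes was -0.46 in double mutant 3 and -0.59 in single mutant 2, each minus the mean of the 2 wild-type males. Below 0 were 47 of 52 genes in double mutant 3 (64.7% of all genes) and 52 of 52 in single mutant 2 (58.2% of all genes), with 1 male per mutant group and no test.

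The large subunit holds the peptidyl transferase centre, and its genes had the largest differences. Mrpl16, the counterpart of bacterial L16, measured 7.53, 7.55 and 7.01 in double mutants and 7.16, 7.01 and 7.36 in single mutants, against 8.21 and 8.29 in wild type. All mutant arrays lay below the wild-type arrays, and this gene had the smallest p of the 52 in both comparisons with wild type. The double mutants differed by -0.89 (SE 0.20, adjusted p = 0.0770), 1.85-fold lower, and the single mutants by -1.07 (SE 0.20, adjusted p = 0.0728), 2.10-fold lower. With a term for sex it was called in both, at -1.15 (SE 0.15, adjusted p = 0.00774) and -1.34 (SE 0.15, adjusted p = 0.00572).

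Mrpl4, the counterpart of bacterial L4, which lines the tunnel for the nascent chain, measured 7.48, 7.53 and 7.50 in double mutants and 7.43, 7.20 and 7.55 in single mutants, against 8.07 and 8.15 in wild type. Both mutants lay below wild type, and the double mutants lay close together (SD 0.022). The difference was -0.61 (SE 0.14, adjusted p = 0.0777) in double mutants and -0.72 (SE 0.14, adjusted p = 0.0769) in single mutants, and it was called in both with a term for sex (adjusted p = 0.0166 and 0.0108). Mrpl38, a protein of the central protuberance found only in mitochondria, measured 7.45, 7.88 and 7.04 in double mutants and 7.10, 6.90 and 7.36 in single mutants, against 8.06 and 8.32 in wild type. It had the largest difference in single mutants, at -1.07 (SE 0.25, adjusted p = 0.103), and -0.74 (SE 0.25, adjusted p = 0.157) in double mutants. The groups did not overlap with wild type, but the double mutants spread widely (SD 0.42).

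Mrpl10 and Mrpl12 form the stalk that recruits translation factors, Mrpl10 as its base and Mrpl12 as its arms. Mrpl10 measured 7.99, 8.08 and 7.85 in double mutants and 7.73, 7.67 and 8.32 in single mutants, against 8.58 and 8.83 in wild type. Its differences of -0.73 and -0.80 missed the threshold (adjusted p = 0.117 and 0.118) and were called with a term for sex (adjusted p = 0.0259 and 0.0197). Mrpl12, which is also known to bind the mitochondrial RNA polymerase, measured 7.33, 7.35 and 7.57 in double mutants and 7.79, 7.52 and 7.68 in single mutants, against 7.84 and 7.99 in wild type. Its difference of -0.50 in double mutants and -0.25 in single mutants was called in neither fit (adjusted p = 0.115 and 0.305 without sex, 0.0667 and 0.291 with it). Mrpl2, the counterpart of bacterial L2, measured 7.04, 7.14 and 7.24 in double mutants and 7.28, 7.39 and 7.49 in single mutants, against 7.59 and 7.75 in wild type. Its 3 groups did not overlap, yet its differences of -0.53 (adjusted p = 0.0914) and -0.28 (adjusted p = 0.241) were called in neither fit.

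**Figure D2:**
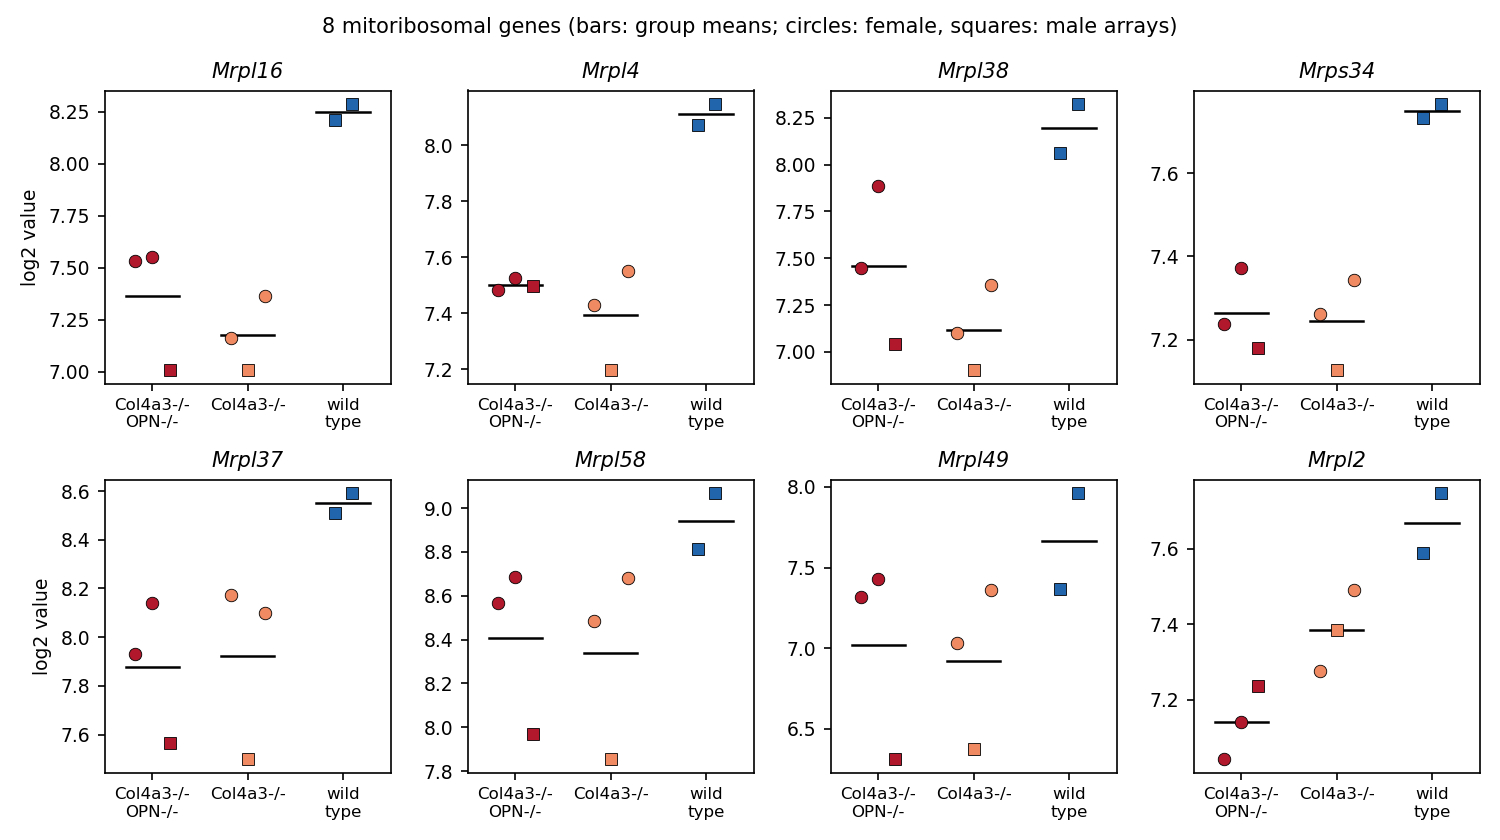
Log2 values of 8 mitoribosomal genes in double mutants, single mutants and wild type, with 1 point per array, circles for females, squares for males and bars for group means. In every gene except Mrpl49 all mutant arrays lie below both wild-type arrays. In every gene except Mrpl4 and Mrpl2 the male of each mutant group is its lowest array.

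Other large-subunit genes were among those with the smallest p once sex was in the fit. Mrpl58, a peptidyl-tRNA hydrolase that became a fixed part of the ribosome, measured 8.57, 8.68 and 7.97 in double mutants and 8.48, 7.85 and 8.68 in single mutants, against 8.81 and 9.07 in wild type. Mrpl37, found only in mitochondria, measured 7.93, 8.14 and 7.57 in double mutants and 8.17, 7.50 and 8.10 in single mutants, against 8.51 and 8.59 in wild type. Mrpl34, the counterpart of the small bacterial protein L34, measured 7.67, 7.81 and 7.16 in double mutants and 7.33, 6.93 and 7.69 in single mutants, against 8.01 and 8.29 in wild type. In each of these 3 genes all mutants were below wild type and the male of each mutant group was the lowest.

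Once sex was in the fit, Mrpl58 differed by -0.997 (SE 0.16, adjusted p = 0.0110) in double mutants and -1.06 (SE 0.16, adjusted p = 0.00824) in single mutants. Mrpl37 differed by -1.04 (SE 0.15, adjusted p = 0.00916) and -0.99 (SE 0.15, adjusted p = 0.00816), and Mrpl34 by -0.996 (SE 0.18, adjusted p = 0.0128) and -1.22 (SE 0.18, adjusted p = 0.00826). Mrpl45, which sits near the exit of the tunnel, differed by -0.84 (adjusted p = 0.0137) and -1.03 (adjusted p = 0.00877). Mrpl51 differed by -0.77 in double mutants (adjusted p = 0.0158). Mrpl49 measured 7.32, 7.43 and 6.31 in double mutants and 7.03, 6.38 and 7.36 in single mutants, against 7.37 and 7.96 in wild type. It overlapped with wild type in the double mutants and had their largest difference with a term for sex, at -1.27 (SE 0.23, adjusted p = 0.0130). Mrpl42 and Mrpl18 were among the 8 genes with the smallest p in single mutants without sex, at -0.76 and -0.52 (adjusted p = 0.134 and 0.132), and were called with it (adjusted p = 0.0167 and 0.0256).

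The small subunit, which reads the message, lay the same way with smaller differences. By its known place rather than its symbol, 33 of the 52 genes belong to the large subunit and 19 to the small. Their medians were -0.43 and -0.36 in double mutants and -0.44 and -0.37 in single mutants. In the fit with sex, 15 of 33 and 5 of 19 were called lower in double mutants, and 18 of 33 and 8 of 19 in single mutants, where 17.8% and 19.9% of all genes were. Without sex 0 were called in either subunit, and no test was made between them. Mrps34, a small-subunit protein found only in mitochondria, measured 7.24, 7.37 and 7.18 in double mutants and 7.26, 7.13 and 7.34 in single mutants, against 7.73 and 7.77 in wild type. All mutants lay below wild type, with differences of -0.49 (SE 0.13, adjusted p = 0.100) and -0.51 (SE 0.13, adjusted p = 0.115).

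Mrps7, the counterpart of bacterial S7, which helps to organise the head of the subunit, differed by -0.43 (adjusted p = 0.153) in double mutants and -0.52 (adjusted p = 0.124) in single mutants. Mrps22, found only in mitochondria and mutated in some human respiratory chain diseases, measured 6.60, 6.73 and 6.70 in double mutants and 6.81, 6.49 and 6.94 in single mutants, against 7.16 and 7.28 in wild type. All 3 of these small-subunit genes were called in both mutants with a term for sex (adjusted p of 0.0208 to 0.0294 in double mutants and 0.0164 to 0.0377 in single mutants). Several members had differences near 0. Mrps25 measured 6.86, 7.02 and 7.06 in double mutants and 7.07, 6.69 and 6.95 in single mutants, against 6.94 and 6.90 in wild type. Mrpl24 differed by 0.02 in double mutants and Mrpl9 by 0.04 in single mutants, and Mrps9 by -0.11 and -0.01, all within the spread of the arrays.

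The 3 paralogs of bacterial S18 lie in different places, with Mrps18a known to sit in the large subunit and Mrps18b and Mrps18c in the small. Mrps18a measured 7.37, 7.67 and 7.36 in double mutants and 7.60, 7.56 and 7.57 in single mutants, against 7.93 and 7.91 in wild type. Mrps18b measured 7.26, 7.70 and 7.77 in double mutants and 7.67, 7.53 and 7.59 in single mutants, against 8.10 and 8.08 in wild type. On the probe sets used, both were below wild type on all 6 arrays. A second, slightly dimmer probe set of Mrps18b read 8.03 in double mutant 3, above both wild-type arrays (7.84 and 7.97). Of the 2 genes only Mrps18a in double mutants was called with a term for sex (-0.51, adjusted p = 0.0477). Mrps18c was too dim to be tested, with differences of -0.22 and -0.20. Mrps30, a large-subunit protein despite its symbol, differed by -0.56 (adjusted p = 0.142) in double mutants and -0.43 (adjusted p = 0.212) in single mutants, and was called with a term for sex at -0.80 and -0.66 (adjusted p = 0.0133 and 0.0190).

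Of the 52 genes, 29 have a counterpart in the bacterial ribosome and 23, called mitochondrial-only here, have none there. The medians of the mitochondrial-only and the conserved genes were -0.47 and -0.36 in double mutants and -0.43 and -0.34 in single mutants. In the fit with sex, 13 of 23 and 7 of 29 were called lower in double mutants, and 15 of 23 and 11 of 29 in single mutants, where 17.8% and 19.9% of all genes were. Both kinds had medians below wild type, and the difference between them was not tested.

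Across the 8 arrays the 52 genes ran together. Over their 1326 pairs the median Pearson correlation was 0.70, with quartiles of 0.45 and 0.85, and 95.6% were above 0. The arrays share the difference between mutants and wild type, so this is a description only. The same correlation was not taken over all genes, so it is not shown to be particular to the members. Mrpl17, a counterpart of bacterial L17, followed the mean of the other members most closely (r = 0.99 over 8 arrays). Mrpl24 (r = 0.08), Mrps9 (r = 0.10), Mrpl3 (r = 0.17) and Mrpl9 (r = 0.21) followed it least.

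Promoters of the mitoribosomal genes were read on both strands, in windows from 250 bases before to 50 after the start (RefSeq, GRCm38.p6). They were searched for 3 motifs known from genes of mitochondrial proteins. These were GCATGCGC for NRF1, CCGGAAG for ETS factors such as GABP and AAGATGG for YY1, or on the other strand GCGCATGC, CTTCCGG and CCATCTT. The end of CCGGAAG is the beginning of AAGATGG, so 1 stretch can hold both. The table held windows for 62 of the 71 genes, 68 windows in all. The 4 windows of the genes with the smallest p in double mutants with a term for sex are shown with any motif in capitals, together with that of Mrps11, whose start lies 42 bases from that of Mrpl46 on the other strand and which was chosen after its values were seen. The windows are Mrpl16 at chr19:11770165-11770464 (plus strand, none of the motifs), Mrpl37 at chr4:107066817-107067116 (minus strand, YY1), Mrpl58 at chr11:115403502-115403801 (plus strand, ETS), Mrpl34 at chr8:71464676-71464975 (plus strand, ETS) and Mrps11 at chr7:78782881-78783180 (plus strand, YY1).
Mrpl16: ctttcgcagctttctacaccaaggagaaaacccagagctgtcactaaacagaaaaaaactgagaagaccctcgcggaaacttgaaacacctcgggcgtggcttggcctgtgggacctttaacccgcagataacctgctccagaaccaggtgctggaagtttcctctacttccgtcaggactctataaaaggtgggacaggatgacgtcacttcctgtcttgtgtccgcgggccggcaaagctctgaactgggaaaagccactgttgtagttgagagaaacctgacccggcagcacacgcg
Mrpl37: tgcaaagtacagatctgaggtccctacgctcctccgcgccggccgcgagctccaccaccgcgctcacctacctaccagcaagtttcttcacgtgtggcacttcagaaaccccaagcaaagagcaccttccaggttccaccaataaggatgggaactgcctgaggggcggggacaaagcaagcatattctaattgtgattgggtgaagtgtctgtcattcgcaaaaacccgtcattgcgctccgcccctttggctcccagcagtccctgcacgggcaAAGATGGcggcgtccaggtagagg
Mrpl58: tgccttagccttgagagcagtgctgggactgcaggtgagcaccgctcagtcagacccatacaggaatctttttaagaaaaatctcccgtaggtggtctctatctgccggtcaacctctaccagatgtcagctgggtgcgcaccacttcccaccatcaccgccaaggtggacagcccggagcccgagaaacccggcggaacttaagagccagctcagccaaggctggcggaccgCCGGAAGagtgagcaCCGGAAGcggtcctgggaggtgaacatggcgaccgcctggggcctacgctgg
Mrpl34: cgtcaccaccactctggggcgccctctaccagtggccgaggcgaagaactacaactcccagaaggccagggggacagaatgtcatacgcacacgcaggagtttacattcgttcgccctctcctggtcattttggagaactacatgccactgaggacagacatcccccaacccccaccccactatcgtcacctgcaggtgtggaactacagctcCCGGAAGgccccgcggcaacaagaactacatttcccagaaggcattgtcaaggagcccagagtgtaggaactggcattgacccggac
Mrps11: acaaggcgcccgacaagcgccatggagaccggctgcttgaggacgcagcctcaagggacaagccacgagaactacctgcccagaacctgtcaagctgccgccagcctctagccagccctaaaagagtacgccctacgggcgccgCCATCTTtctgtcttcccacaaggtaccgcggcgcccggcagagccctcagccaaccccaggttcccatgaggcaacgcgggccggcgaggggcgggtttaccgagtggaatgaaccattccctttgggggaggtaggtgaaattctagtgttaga

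The ETS letters stood in 33.8% of the mitoribosomal windows (23 genes), against 8.86% of all 32851 windows in the table. The YY1 letters stood in 19.1% (13 genes), against 6.34%, and the NRF1 letters in 10.3% (7 genes), against 2.71%. Any of the 3 was present in 51.5% of mitoribosomal windows (35 genes) and in 16.6% of all windows. Among the 44 tested genes with a window, the 26 with a motif had a median difference of -0.41 in double mutants and -0.45 in single mutants, and the 18 without one had -0.39 and -0.30. Mrpl16, with none of the 3 in its window, had the largest difference of the 52 in double mutants. Mrps11, a small-subunit protein, differed by -0.27 in double and -0.38 in single mutants, and Mrpl46, on the other strand and below the filter, by -0.26 and -0.27.

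The double mutants did not differ detectably from the single mutants in any mitoribosomal gene. Of 52 genes, 0 were called in either fit, as were 0.0% of all genes tested. None had an unadjusted p under 0.05, against 104 of all genes without and 273 with a term for sex. The median difference was 0.02, against 0.00 over all genes. The groups did not overlap for 1 of 52 genes (1.92%), against 5.01% of all genes; this was Mrpl2, lower by 0.24 (SE 0.12) in double mutants. The largest differences were -0.33 (SE 0.18) for Mrps16 and -0.28 (SE 0.17) for Mrps35 on the lower side, followed by Mrpl2 and Mrpl12 (-0.24, SE 0.13). On the higher side they were 0.34 (SE 0.23) for Mrpl38, 0.23 (SE 0.24) for Mrpl34 and 0.20 (SE 0.14) for Mrps17, all with an adjusted p of 1.0. Dimmer second probe sets differed by 0.04 for Mrps16, -0.07 for Mrpl12 and 0.09 for Mrps17.

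Split by sex, the comparison of the mutants ran in opposite directions. The male double mutant minus the male single mutant had a median of 0.16 over the 52 genes, with 44 of 52 above 0 (43.7% of all genes). Female double mutants minus female single mutants had a median of -0.05, with 20 of 52 above 0 (53.2% of all genes). The test of that difference, a contrast of genotype by sex, called 0 of 52 genes and 0.0% of all genes, with a smallest adjusted p of 0.159. At an unadjusted p under 0.05 there were 5 of 52, against 913 of all genes.

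Between female and male mutants the median difference of the 52 genes was 0.21, against 0.09 over all genes. The same comparison had a median of 0.95 for 8 proximal tubule markers, -1.33 for 4 fibroblast markers and -0.73 for 6 macrophage markers. With 1 male per mutant group, sex cannot be told apart from other differences between these mice. Of 52 genes, 5 (9.62%) were called higher in females, a share near the 8.22% of all genes, and none lower. These were Mrpl58 (0.69, SE 0.13, adjusted p = 0.0189), Mrpl49 (0.94, SE 0.19, adjusted p = 0.0238), Mrpl37 (0.55, SE 0.12, adjusted p = 0.0287), Mrpl45 (0.59, SE 0.13, adjusted p = 0.0299) and Mrpl34 (0.58, SE 0.15, adjusted p = 0.0456). All 5 belong to the large subunit and only Mrpl34 has a counterpart in the bacterial ribosome. The largest difference the other way was that of Mrpl20 (-0.20, SE 0.19, adjusted p = 0.515).

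The same arrays chose these 5 genes, so their values within each mutant are a description. Mrpl49 was higher in females by 1.06 in double and 0.82 in single mutants, Mrpl58 by 0.66 and 0.73, and Mrpl37 by 0.47 and 0.64. Within the double mutants the median over the 52 genes was 0.11, with 33 of 52 above 0, against a median of 0.13 and 65.7% above 0 over all genes. Within the single mutants it was 0.32, with 50 of 52 above 0, against a median of 0.06 and 56.5% above 0 over all genes. Each mutant group had 1 male, and leaving out single mutant 2 or single mutant 3 left 0 of the 5 called, single mutant 1 4, double mutant 1 2, double mutant 2 or 3 1, and either wild type 3. No wild-type female was measured, so the same comparison in wild type was not possible.

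**Figure D3:**
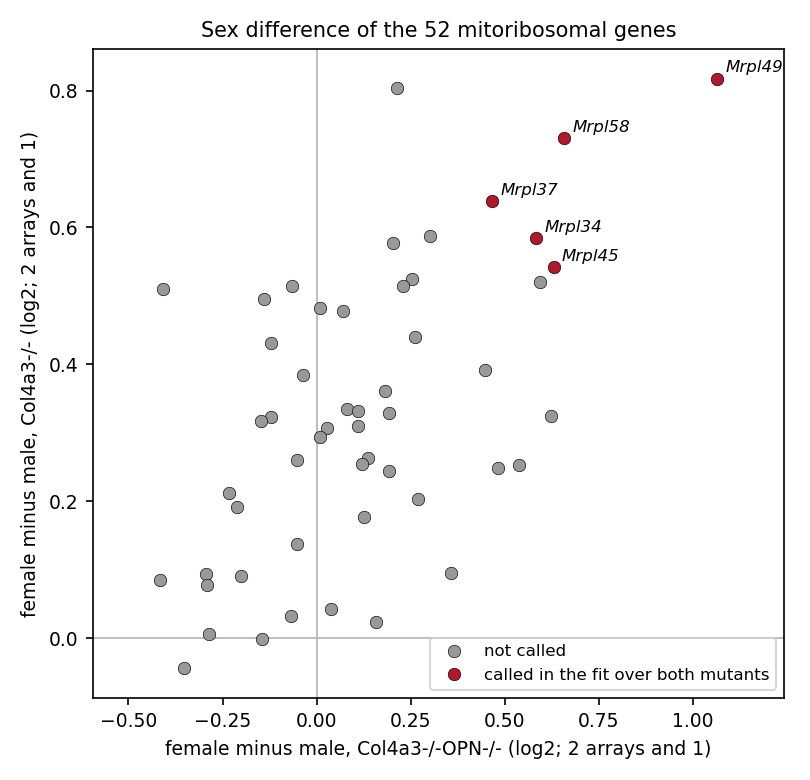
Log2 difference between females and the male of each mutant group, with 1 point per mitoribosomal gene, double mutants on the horizontal axis and single mutants on the vertical axis. The 5 genes called in the fit over both mutants, in red, lie at the upper right, and 50 of 52 genes lie above 0 in the single mutants against 33 of 52 in the double mutants.

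The rest of the mitochondrial translation machinery lay below wild type too. Of 10 translation factors tested, 5 were called lower in double mutants and 6 in single mutants with a term for sex, where 17.8% and 19.9% of all genes were, and 0 without it. Their medians without it were -0.46 and -0.44. Gfm1, the elongation factor that moves the ribosome along, measured 8.05, 7.88 and 7.83 in double mutants and 8.12, 7.69 and 8.17 in single mutants, against 8.42 and 8.60 in wild type, a difference of -0.78 and -0.71 with a term for sex (adjusted p = 0.0163 and 0.0191). Taco1, a translational activator of a cytochrome oxidase subunit, differed by -0.96 and -0.83 (adjusted p = 0.0113 and 0.0137).

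Among 10 factors of ribosome assembly and rRNA modification, 6 were called lower in each mutant with a term for sex. Without sex 0 genes were called in this list, in tRNA charging or in transcription and RNA processing, and the gene values that follow are those with sex (17.8% of all genes called lower in double mutants and 19.9% in single mutants). Noa1, a GTPase needed for the small subunit, differed by -0.89 and -1.06 (adjusted p = 0.0128 and 0.00877), and Oxa1l, which inserts new chains into the inner membrane, by -0.85 and -0.89 (adjusted p = 0.0112 and 0.00961). Of 12 genes of mitochondrial tRNA charging, 5 were called lower in each. Yars2, the tyrosyl-tRNA synthetase, differed by -1.01 and -1.03 (adjusted p = 0.0108 and 0.00816), and Gatc, a subunit of the amidotransferase for glutaminyl-tRNA, by -1.84 and -2.23 (adjusted p = 0.0112 and 0.00759). Without sex, Gatc differed by -0.82 and -1.22 (adjusted p = 0.463 and 0.271). Of 10 factors of mitochondrial transcription and RNA processing, 7 were called lower in each, among them the transcription initiation factor Tfb2m (-1.02 and -0.94, adjusted p = 0.0107 and 0.00935). Dap3, a small-subunit protein with a symbol of another kind, was called at -0.49 and -0.48 (adjusted p = 0.0487 and 0.0460), and Ptcd3 was not, at 0.25 and 0.34.

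The nuclear genes of the respiratory chain, whose partners the mitoribosome makes, also lay below wild type. Medians without sex in double and single mutants were -0.36 and -0.38 for 28 complex I genes, -0.39 and -0.36 for 4 of complex II, and -0.42 and -0.54 for 7 of complex III. They were -0.32 and -0.42 for 8 of complex IV, and -0.33 and -0.35 for 10 of ATP synthase. With a term for sex, 13 and 11 of the 28 complex I genes were called lower, Ndufa8 among them (-1.16 and -1.36, adjusted p = 0.00753 and 0.00572). The counts were 1 and 1 of 4 for complex II, 4 and 4 of 7 for complex III, 2 and 3 of 8 for complex IV and 4 and 7 of 10 for ATP synthase, where 17.8% and 19.9% of all genes were called lower. Without sex 0 were called in every complex. With sex, Uqcrc2 of complex III differed by -0.89 and -1.08 (adjusted p = 0.0125 and 0.00816). No difference between these lists and the mitoribosomal genes was tested.

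The genes of the mitochondrial DNA and of the cytosolic ribosome did not lie below wild type as lists. For 10 genes of the mitochondrial DNA the medians were 0.03 in double mutants and 0.04 in single mutants, with 0 called in either fit, and the sign turned under quantile normalization (-0.01 and -0.02) and, in double mutants, median centring (-0.00033). Under cyclic loess the medians were 0.09 and 0.18. Only 10 of the 28 listed genes of the mitochondrial DNA were measured. Their mean was 12.68 to 12.87 on all arrays, near the top of the range of values. Whether differences can still be read at that level was not tested. Medians near 0 therefore do not show that these transcripts were unchanged. For 32 cytosolic ribosomal proteins the medians were 0.23 and 0.24, and they stayed above 0 under every scaling tried. In each mutant 5 of the 32 were called higher and 0 lower with a term for sex. Of all 7145 genes, 457 were called higher in double mutants and 522 in single mutants in that fit. Without sex 0 of the 32 were called. Rps12 measured 10.15, 10.38 and 10.63 in double mutants and 10.49, 10.89 and 10.29 in single mutants, against 9.99 and 9.89 in wild type. Its differences with a term for sex were 0.74 and 0.91 (adjusted p = 0.0173 and 0.0105), and every mutant array lay above both wild-type arrays.

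**Figure D4:**
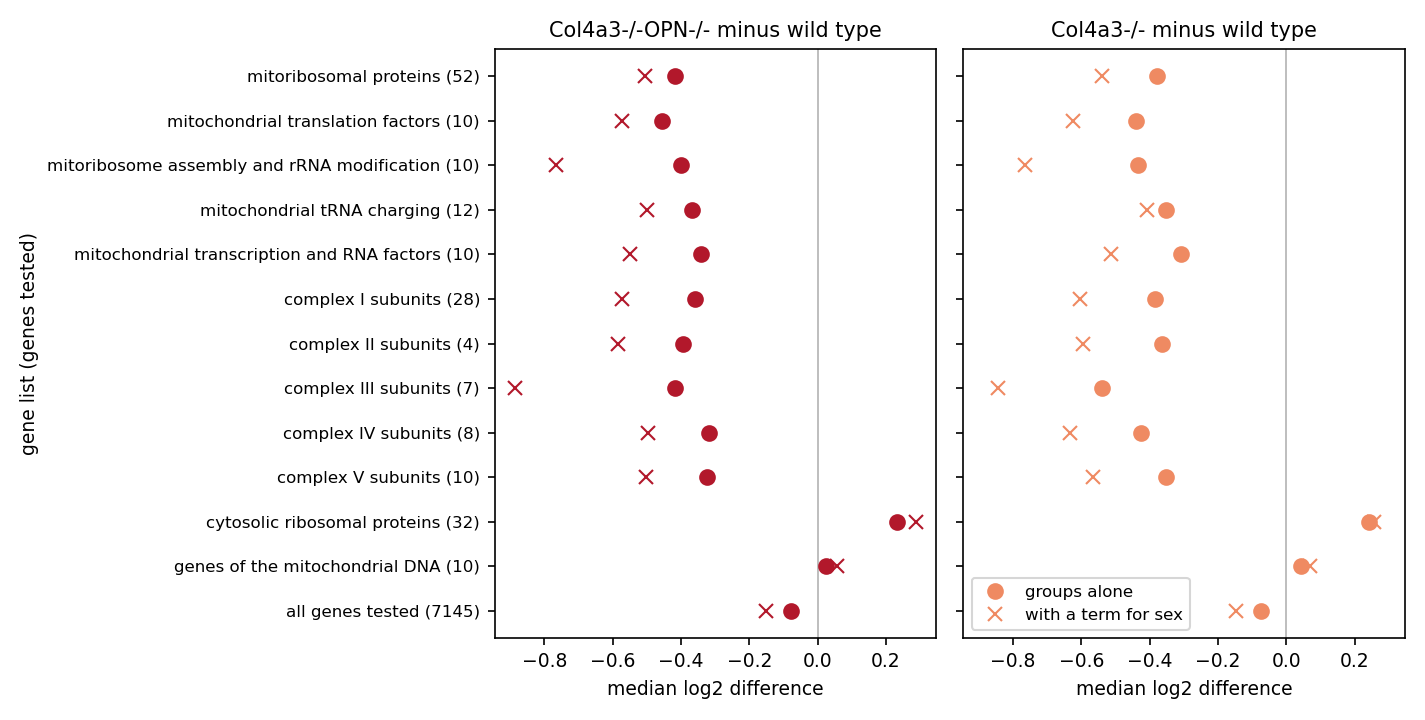
Median log2 difference from wild type of each gene list in double mutants and single mutants, from the fit of groups alone (dots) and with a term for sex (crosses). The 10 plotted lists from mitoribosomal proteins down to complex V lie between -0.89 and -0.31, the genes of the mitochondrial DNA between 0.03 and 0.07, the cytosolic ribosomal proteins between 0.23 and 0.29, and all genes tested between -0.15 and -0.07.

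Markers of the tubule cell richest in mitochondria also lay below wild type. All 8 of 8 proximal tubule markers lay below wild type in both mutants, with medians of -0.54 and -0.65. Of all genes tested, 59.2% and 57.2% lay below. With a term for sex 5 and 6 of 8 were called lower, where 17.8% and 19.9% of all genes were. Without sex 0 of the 8 were called. Their mean was 11.0, 10.7 and 10.5 in double mutants and 10.9, 9.60 and 11.3 in single mutants, against 11.3 and 11.4 in wild type. Relative to the wild-type mean this was -0.39, -0.64 and -0.85 in double mutants and -0.40, -1.75 and -0.08 in single mutants. Single mutant 2 was lowest both in these markers and in the mitoribosomal genes. Single mutant 3 had markers near wild type and a mitoribosomal mean of -0.25. Double mutant 2 had a lower marker mean than double mutant 1 but a higher mitoribosomal mean (-0.28 against -0.45). The 3 tested loop of Henle and distal tubule markers had medians of -0.05 in double and 0.18 in single mutants. With a term for sex these were -0.42 and -0.11, and 1 of 3 was called lower in each mutant. The 3 collecting duct markers had medians of -0.25 and 0.03 without sex, and -0.89 and -0.39 with it. With sex, 2 of these 3 were called lower in double and 0 in single mutants. Without sex 0 were called in either list. Macrophage markers were higher than the wild-type mean by 1.82, 2.10 and 1.83 in double mutants and by 0.97, 2.48 and 0.89 in single mutants. Fibroblast markers were higher by 2.18, 2.67 and 2.33 and by 1.30, 3.37 and 1.67. All 6 macrophage and all 4 fibroblast markers were above wild type in both mutants. The part of these cell types in the mitoribosomal difference was not tested.

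**Figure D5:**
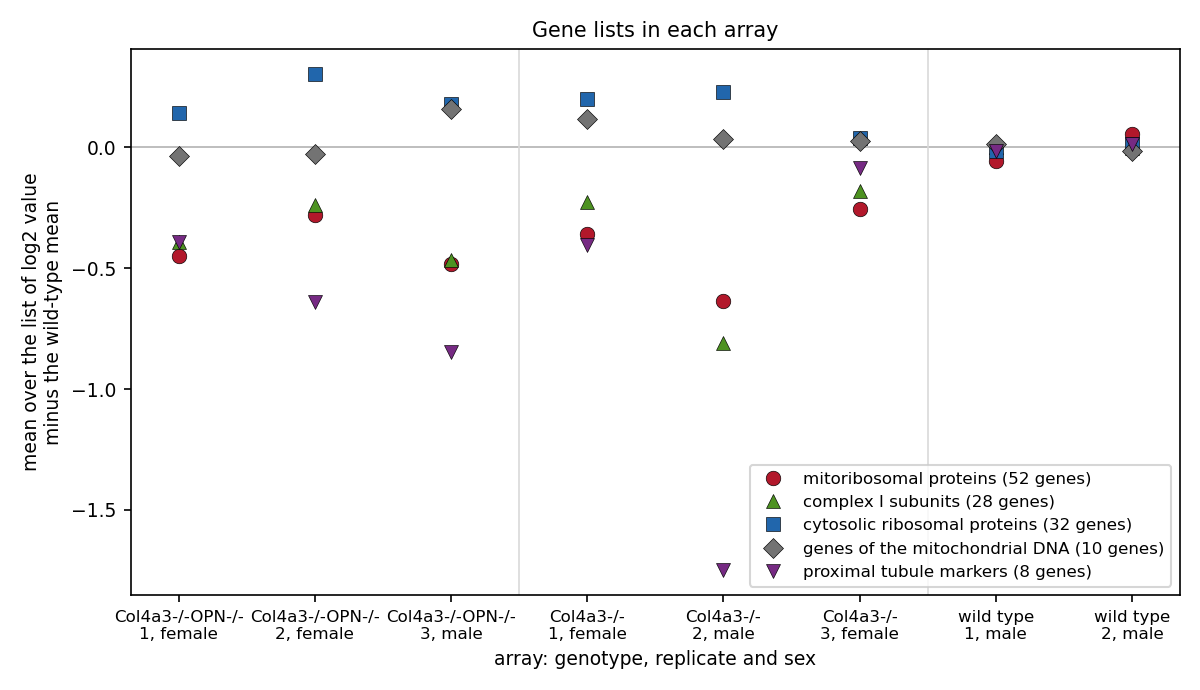
Mean over each gene list of the log2 value minus the wild-type mean, for each array by genotype, replicate and sex. The mitoribosomal proteins (red) lie at -0.25 to -0.64 on all 6 mutant arrays, the cytosolic ribosomal proteins at 0.04 to 0.30, and the proximal tubule markers at -0.08 to -1.75.

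The 19 dim mitoribosomal genes pointed the same way without being tested. In each mutant 18 of 19 lay below wild type, with a median of -0.26 in both, and Mrpl27 alone lay above (0.01 and 0.09). Among all genes above the filter 59.2% and 57.2% lay below, and the share among dim genes was not taken. Mrpl57, a large-subunit protein found only in mitochondria, differed by -0.58 and -0.76, and Mrps27 by -0.63 and -0.66. Mrps36, now known as a component of the 2-oxoglutarate dehydrogenase complex rather than of the ribosome, differed by -0.22 and -0.27. Without any intensity filter, 0 of the 19 were called in the fit of groups alone. In the fit with sex 1 was called in each comparison, Mrpl1 in double mutants (-0.62, adjusted p = 0.0286) and Mrpl57 in single mutants (-1.10, adjusted p = 0.0376).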

How the data were processed

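Gene expression was measured in 8 kidneys with 1 whole-transcript array each. The authors deposited 1 log2 value for each probe set and array (scale read from the range, 4.20 to 13.4), used here without change. Their normalization was not given in the sources used here, and the labelling kit named in the labels is one for small RNAs. Of 33793 probe sets, 23521 named 1 gene in the platform annotation, 1814 several and 8458 none. The number of arrays limits the precision. Labels do not say whether mice were littermates, so p-values measure the spread between these mice.

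Groups were compared over all 8 arrays with limma 3.58.1 (lmFit, eBayes) in R 4.3.3, without and with a term for sex, with two-sided p-values adjusted by Benjamini-Hochberg over 7145 genes. The fits were checked on simulated data in which 100 genes were lowered by 1 and 100 by 0.5. For both fits the simulated spread was that left by the fit with sex, and a sex difference was added only for the fit with sex. Recovery without sex was therefore read in data without a sex difference, unlike these arrays, and cannot rank the 2 fits. At 1, 84% were recovered in double and 87% in single mutants without sex, and 63% and 64% with it. At 0.5, 9% and 15% were recovered without sex, and 2% and 2% with it. Changes of that size can therefore be missed. Samples were not treated as paired by replicate number. Correlations of same-numbered deviations between the mutants were 0.26, -0.34 and -0.58. Replicate 1 was female in both mutants, and replicates 2 and 3 differed in sex, so these values cannot show whether the numbers pair the samples. Named genes were up to 8 members with the smallest p in each direction and comparison, the largest differences, the S18 paralogs, Mrpl12, Mrps30 and Mrps36, and up to 4 genes of each other list, of which some are given. Mrpl3 and Mrpl17 were named for their correlation after it was seen, and Mrps11, Mrpl46, Mrpl32, Mrpl1, Mrpl57, Mrpl27, Mrpl24 and Mrps27 after their values were. Members and lists were chosen with earlier results of these data known. Alternatives were other scalings, filters, array weights, trends and left-out arrays. Promoters and positions are from RefSeq GRCm38.p6. The osteopontin gene is not reported here. Figures used matplotlib 3.10.9 (Python 3.11.15).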

Additional observations from a re-analysis of the deposited data

How the results depend on the processing

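The alternatives to the fit with sex and to the contrast of genotype by sex were chosen after seeing the data. The direction of the median over the 52 mitoribosomal genes against wild type did not change under any alternative tried. For double mutants the count called was 0 without sex, 14 with array weights, 1 in a fit of only the 2 groups, 20 with a term for sex and 30 with that term and median centring. Leaving out 1 array gave 0 to 3. For single mutants it was 0, 8 with array weights, 26 with a term for sex and 28 with median centring besides, and 0 to 0 with 1 array left out. The single-mutant median of -0.38 became -0.54 with a term for sex, -0.58 with median centring besides and -0.59 among males. With a term for sex, the double-mutant count of 20 became 12 in a fit of only the 2 groups and 0 to 19 with 1 array left out. Its median ranged from -0.71 to -0.46 then, the lowest without double mutant 3. The single-mutant count of 26 became 17 without a filter, 13 with array weights and 0 to 27 with 1 array left out. The 5 genes called between the sexes became 2 without a filter, 3 with cyclic loess, 0 with array weights and 0 to 4 with 1 array left out. The cause of these changes was not tested. Under the fit with sex, quantile normalization and cyclic loess moved the single-mutant median of all genes by 0.10 and 0.11, and the mitoribosomal median relative to it was -0.39 as deposited, -0.41 under quantile normalization and -0.42 under cyclic loess. The count for genotype by sex stayed 0, and leaving out either mutant male was not run there because that cell would be empty.

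The replicate block, in samples known to share only a number, gave 0 called in the 3 genotype comparisons without sex. With sex it gave 29, 27 and 0 for double mutants, single mutants and their difference. Between the sexes it gave 6. Of 870 alternative values for the genes named, 775 kept direction and side of the threshold, 67 lost a call, 18 gained one and 10 changed sign. Sign changes concerned Mrpl9 in single mutants (-0.022 without wild type 2, -0.021 without single mutant 1, -0.090 among males) and, with a term for sex, Mrps9 there (-0.014 in the 2 groups alone, -0.043 without wild type 1, -0.014 without double mutant 3, and up to 0.278 without single mutant 2). Between the mutants they concerned Mrpl12 (0.053), Mrps16 (0.0082) and Mrps35 (0.15) among males, and between the sexes Mrps9 (0.0053 without double mutant 3). Without single mutant 2, Mrps9 kept its sign with a term for sex, at 0.278 in single mutants and -0.287 between the sexes. The 2 wild-type arrays, both male, limit all comparisons with wild type.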

Other observations

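Mitoribosomal genes often share their start region with a neighbour on the other strand. Within 300 bases, 19 of 62 genes (30.6%) had such a divergent partner, against 9.47% of 27025 genes with a window. The 8 tested partners that are not mitoribosomal had medians of -0.17 in double mutants and -0.24 in single mutants, against -0.42 and -0.34 for the mitoribosomal genes they face. Of these partners 6 of 8 lay below wild type in each mutant, where 59.2% and 57.2% of all genes tested did. Psma2, a proteasome subunit gene opposite Mrpl32, differed by -0.34 and -0.67, where Mrpl32 differed by -0.34 and -0.33. Ptcd2, whose protein acts on mitochondrial RNA, lies opposite the dim Mrps27 and differed by -0.37 and -0.47. Fau, which encodes a cytosolic ribosomal protein opposite Mrpl49, differed by 0.16 and 0.13, where Mrpl49 differed by -0.65 and -0.74. Zfp189, opposite Mrpl50, differed by 0.35 and 0.33. These genes were chosen after their values were seen, and no test of the pairs was made.

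Probe sets that the annotation shares between a mitoribosomal gene and another gene were left out above. There were 13 of them, 9 below wild type in double mutants and 10 in single mutants, with medians of -0.13 and -0.26. Of all genes tested, 59.2% and 57.2% lay below. The signal of the 2 genes on such a probe set cannot be told apart. For 9 members a second, dimmer probe set existed. That of Mrps18b differed from wild type by -0.37 and -0.49, where the brighter one differed by -0.51 and -0.49. On it double mutant 3 (8.03) lay above both wild-type arrays (7.84 and 7.97). That of Mrpl10 was flat at 0.01 and -0.05, where the brighter one differed by -0.73 and -0.80.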
